A study of Homo sapiens with 6 samples.

Results

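The genes described here are the 7 complement regulator genes that lie together on chromosome 1, namely C4BPB, C4BPA, CD55, CR2, CR1, CR1L and CD46, out of 20037 protein-coding genes. They were taken by name, and the peaks of every deposited list were counted in each gene with 5 kb on both sides and along the stretch from the start of C4BPB to the end of CD46. The group was chosen by the covered share of CR2 in the same lists, which had been seen to be lower in the knockout, so these values describe the genes and were not tested. Peaks came from ACHN cells, an established human renal carcinoma line, in which ZCCHC8 was knocked out (ZCCHC8-KO, called KO) or intact (ZCCHC8-WT, called WT). ZCCHC8 is the scaffold of the NEXT complex, which hands nuclear RNAs to the RNA exosome, and the series asks how NEXT bears on the histone mark H3K27me3. Chromatin was precipitated with an antibody to H3K27me3 or to EZH2, and each combination of antibody and genotype had 1 library, with 1 input for KO and 1 for WT. No difference between KO and WT therefore has a replicate check. How many reads stand behind a list is unknown. The labels do not say whether the KO cells were 1 clone or a pool.

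Complement is a cascade of blood proteins that marks microbes and damaged cells, and its regulators keep it from attacking the body's own cells. The proteins of this gene family are built from repeated short complement control modules that bind C3 and C4 fragments. CD55 and CD46 sit on nearly all human cells, whereas CR2 is best known from B cells and follicular dendritic cells and CR1 from red blood cells and leukocytes. C4BPA and C4BPB encode the chains of C4b-binding protein, a plasma protein made in the liver. EZH2 is the enzyme of the Polycomb complex PRC2, which places H3K27me3 on genes that are kept silent.

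Promoter windows of 4 members are shown because they carry the contrast between genes with and without peaks at their start, and because a pair of them share sequence. Each runs from 250 bases before the annotated gene start through its first 50 bases, on the plus strand, with sequences from RefSeq (GRCh38.p14), in which all 7 members were matched. CR2 (chr1:207454078-207454377) and CR1 (chr1:207495907-207496206) are printed with the bases under a listed peak in capitals. CR1L (chr1:207644883-207645182) and CD46 (chr1:207751788-207752087), which had no peak over this window in any list, are printed with their longest shared run in capitals.
CR2: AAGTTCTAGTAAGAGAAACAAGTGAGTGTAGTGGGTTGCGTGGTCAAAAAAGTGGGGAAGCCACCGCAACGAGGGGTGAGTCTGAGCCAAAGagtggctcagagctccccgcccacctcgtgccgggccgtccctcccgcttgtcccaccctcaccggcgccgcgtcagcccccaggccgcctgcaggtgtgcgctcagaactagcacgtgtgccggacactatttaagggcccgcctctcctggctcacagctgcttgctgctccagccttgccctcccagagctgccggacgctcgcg
CR1: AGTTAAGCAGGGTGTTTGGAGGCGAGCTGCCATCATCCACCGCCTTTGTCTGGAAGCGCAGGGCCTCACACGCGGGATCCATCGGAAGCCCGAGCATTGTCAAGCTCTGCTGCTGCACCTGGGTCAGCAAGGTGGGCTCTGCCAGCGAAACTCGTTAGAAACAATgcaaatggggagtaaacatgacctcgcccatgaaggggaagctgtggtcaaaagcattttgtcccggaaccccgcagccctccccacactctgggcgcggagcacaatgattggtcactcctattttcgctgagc
CR1L: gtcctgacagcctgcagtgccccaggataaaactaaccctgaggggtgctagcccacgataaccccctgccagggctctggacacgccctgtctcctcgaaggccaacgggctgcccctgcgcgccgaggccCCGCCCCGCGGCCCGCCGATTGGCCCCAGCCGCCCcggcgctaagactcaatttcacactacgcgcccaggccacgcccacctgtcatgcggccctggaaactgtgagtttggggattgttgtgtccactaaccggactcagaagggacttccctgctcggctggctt
CD46: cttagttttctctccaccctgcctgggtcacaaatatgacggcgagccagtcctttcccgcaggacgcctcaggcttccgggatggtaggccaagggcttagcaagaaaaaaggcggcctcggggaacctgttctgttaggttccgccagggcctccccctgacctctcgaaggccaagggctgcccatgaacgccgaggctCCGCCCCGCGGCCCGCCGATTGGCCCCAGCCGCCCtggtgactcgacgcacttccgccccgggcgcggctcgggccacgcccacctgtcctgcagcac

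In CR2, bases 1 to 92 of the window lay under a WT H3K27me3 peak and bases 1 to 11 also under a WT EZH2 peak, while no KO peak reached it. In CR1, bases 1 to 165 lay under a KO EZH2 peak, and the other lists had no peak there. CR1L and CD46 shared a run of 35 bases. The CR1L start lies inside CD46P1, an annotated CD46 pseudogene, so reads from the copies may not always be told apart. The other pairs compared (CR2 with CR1, CR2 with CR1L, CR1 with CR1L) shared at most 10 bases.

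CG dinucleotides, which are dense in the promoters that PRC2 is known to occupy in mammals, separated the plasma protein genes from the rest. The windows held 21 in CR2, 15 in CR1, 21 in CR1L, 25 in CD46 and 19 in CD55, against 5 in C4BPA and 1 in C4BPB. Among 27305 promoters of the same length the median was 14, and 39.5% had at least as many as CR2. The GC box GGGCGG, searched on both strands, occurred once in CR2 and in CD55, 2 times in CR1L and 3 times in CD46, and in no other member, and 44.6% of all promoters held it. TATAAA, searched the same way, was in none of the 7 windows and in 12.0% of all promoters. Windows with 15 or more CG dinucleotides thus included genes with a peak there in some list (CR2, CR1) and genes without (CR1L, CD46, CD55). For CR1 this was a KO EZH2 peak alone, and its count of 15 was close to the median.

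H3K27me3 over the stretch was centred on CR2 and its neighbour CR1, and it was thinner in the KO list. The stretch of 706.657 kb (chr1:207088860-207795516) held 47 H3K27me3 peaks in KO and 133 in WT, a KO/WT ratio of 0.353. They covered 21175 bp in KO and 64109 bp in WT, a ratio of 0.330. On chromosome 1 as a whole the ratio of peak numbers was 0.875 and over all chromosomes 0.750, so the stretch lay below both. With peaks under a score of 7 left out of both lists, the ratio was 0.246 in the stretch, against 0.397 on chromosome 1 and 0.307 over all chromosomes. Peaks with a score of at least 10 numbered 2 in KO and 49 in WT, and peaks of 1 kb or wider 4 in KO and 14 in WT. Such counts are not given for the whole lists, where the median score was also lower in KO (6) than in WT (7). They therefore do not set the stretch apart. The score is the authors' value for each peak, with no definition in the sources used here.

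The flanking sequence did not show the same deficit. The 1 Mb to the left of C4BPB held 59 H3K27me3 peaks in KO and 65 in WT. To the right of CD46, 1 Mb held 211 in KO and 108 in WT, a ratio of 1.95, so KO had more peaks there than WT. Covered length gave 0.826 on the left and 2.05 on the right. The nearest protein-coding gene on the left, PFKFB2, a glycolysis regulator, had no peak of either antibody in either genotype.

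**Figure D1:**
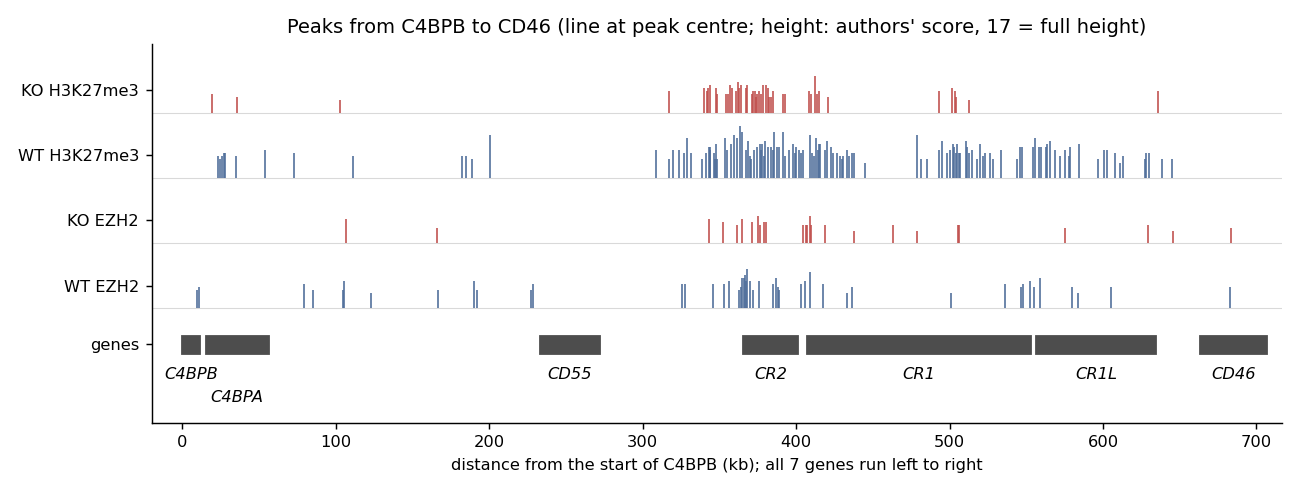
Listed peaks along the stretch, as kb from the start of C4BPB, in 4 rows (KO H3K27me3, WT H3K27me3, KO EZH2, WT EZH2), each peak a line at its centre whose height is proportional to the authors' score. Of the H3K27me3 peaks, 21 of 47 in KO and 29 of 133 in WT touch CR2 with 5 kb on both sides. WT peaks go on through CR1 and CR1L, and CD55 and CD46 carry no H3K27me3 peak.

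H3K27me3 peaks touched 4 of the 7 members in KO and the same 4 in WT (C4BPA, CR2, CR1 and CR1L), whereas 23.1% of all protein-coding genes had one in KO and 26.0% in WT. Of all genes with one in WT, 69.7% also had one in KO. In all 4 members the covered share of gene plus 5 kb in KO was at most 0.5 times that in WT, called the lower rule here. CR2 was close to this limit, at 0.491, and over the gene alone its ratio was 0.541, which does not meet it. Among the 6214 genes with H3K27me3 coverage in either list, 40.7% met it, and 24.5% met the higher rule, a KO share of at least 2 times the WT share. The members entered with the deficit of CR2 known, so nothing is read from that count. The median difference over the 7 members was -2.28 percentage points, beside -0.17 over those 6214 genes. The first includes C4BPB, CD55 and CD46, which had no coverage, whereas the second takes covered genes only. The windows of CR2 and CR1, of CR1 and CR1L and of C4BPB and C4BPA overlap, so neighbours share some peaks.

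CR2 (chr1:207454328-207489892), the receptor for C3d and for Epstein-Barr virus, was the most covered member in every list. Its window held 21 H3K27me3 peaks in KO and 29 in WT, covering 20.7% and 42.0%. It stood at rank 53 of the genes in KO and at rank 8 in WT, and its difference of -21.4 points was the 10th largest deficit of all genes. In that order DAPL1, at 11.7% in KO and 34.1% in WT, stood just before it, and SLC38A4, at 2.33% in KO and 23.6% in WT, just after it. The median score of its peaks was 7 in KO and 10 in WT, and the widest was 868 bp in KO and 2471 bp in WT. With scores under 7 left out, CR2 was covered over 13.5% in KO and 41.3% in WT. KO scores were lower over the whole lists too, with a median of 6 in KO and 7 in WT. That cut kept 19946 of 69840 KO peaks and 65017 of 93095 WT peaks, so it thinned the KO list more.

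The deficit at CR2 was uneven along the gene. Of 3 equal parts of CR2, the first was covered over 28.1% in KO and 51.8% in WT. In the middle part the values were 26.8% in KO and 27.4% in WT, so nearly equal. The last part had 7.47% in KO and 36.0% in WT, and from 27.5 kb after the start to the end of the gene KO had no peak. In the 5 kb before the start, 40.4% was covered in KO and 83.2% in WT, while in the 30 kb before it the values were 27.6% in KO and 37.9% in WT. A bin of 5 kb, from 10 to 5 kb before the start, had more coverage in KO (62.4%) than in WT (44.4%), and so did the bin from 15 to 20 kb after it (43.8% in KO and 27.1% in WT).

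Peaks closest to the CR2 start stood nearer to it in WT. The nearest H3K27me3 peak lay 825 bp from the start in KO and 159 bp from it in WT. That WT peak (chr1:207453182-207454169) was 988 bp wide with a score of 15. Peaks joined across gaps of up to 3 kb made a domain of 31.0 kb in KO, from 11.5 kb before the CR2 start to 19.5 kb after it. In WT the corresponding domain was 52.0 kb, from 13.0 kb before the start to 39.0 kb after it. The KO domain thus began close to the WT one and ended inside CR2, where the WT one went on past the end of the gene.

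CR1 (chr1:207496157-207641765), the receptor for C3b and C4b on red blood cells and leukocytes, held the largest part of the H3K27me3 difference in bp. Its window had 11 peaks in KO and 51 in WT, covering 2.69% and 14.0%. The gene itself accounted for 38.4% of the net deficit of the stretch, against 14.6% for the gene CR2, 19.8% for CR1L and 15.5% for the sequence between CD55 and CR2. Of 3 equal parts of CR1, the first was covered over 5.63% in KO and 17.2% in WT, the middle over 2.48% and 10.6%, and the last over 0.523% and 14.8%. Inside the first part of CR1 a block of peaks was kept, since the bin 45 to 50 kb after the CR2 start was covered over 40.6% in KO and 59.3% in WT. The bin that holds the CR1 start, from 40 to 45 kb, was covered over 8.88% in KO and 7.92% in WT.

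In the last part of CR1 the largest WT block, from 145 to 150 kb after the CR2 start, was covered over 5.08% in KO and 62.0% in WT.

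A peak-free interval lay inside CR1 in both genotypes. It measured 72.7 kb in KO, from 13.3 to 86.0 kb after the CR1 start, and 33.9 kb in WT, from 37.7 to 71.6 kb. CR1 is known for long tandem repeats of almost identical sequence, and how reads with several matches were counted is unknown. In the 6.264 kb between CR2 and CR1, no H3K27me3 peak was listed in KO and 3 in WT, against 3 EZH2 peaks in KO and 2 in WT. Values of CR1 and of its relative CR1L are therefore uncertain.

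CR1L (chr1:207645133-207723703), a CR1-like gene of little known function in humans, was nearly bare in KO. Its window held 1 peak in KO and 23 in WT, covering 0.341% and 10.5%, and the KO peak lay beyond the end of the gene. Within the gene KO had no H3K27me3 peak, against 20 in WT. The WT peaks were spread over the gene, with 15.0% of the first, 11.5% of the middle and 6.03% of the last of 3 equal parts covered.

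Among the plasma protein genes, C4BPA (chr1:207104233-207144972), the alpha chain gene of C4b-binding protein, had few H3K27me3 peaks. There were 2 in KO and 7 in WT, covering 1.25% and 3.54%. C4BPB (chr1:207088860-207099993), the beta chain gene, had none in either genotype. Between C4BPA and CD55, a stretch of 176.705 kb with C4BPA pseudogenes, 1 peak was listed in KO and 6 in WT.

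CD55 (chr1:207321678-207360966), which speeds the decay of C3 convertases on cell surfaces, and CD46 (chr1:207752038-207795516), a cofactor for cutting C3b and C4b, had no H3K27me3 peak in either list. The nearest one lay 84.4 kb from the CD55 start in KO and 32.1 kb from it in WT. For CD46 the distances were 27.4 kb in KO and 18.0 kb in WT. A peak-free interval of 215 kb in KO and 108 kb in WT spanned CD55. RNA was not measured in these samples, so the peaks cannot be set beside expression of the genes.

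**Figure D2:**
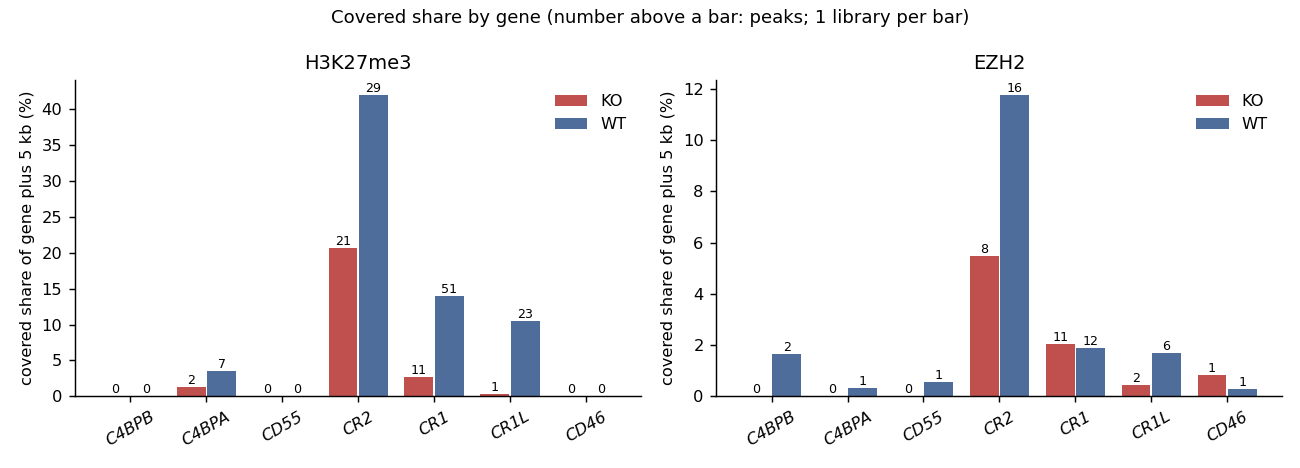
Covered share of gene plus 5 kb (percent) for each member, H3K27me3 on the left and EZH2 on the right, KO bars left of WT bars, with the number of peaks above each bar and 1 library behind each bar. CR2 is the tallest in both, at 20.7% in KO and 42.0% in WT for H3K27me3 and at 5.46% in KO and 11.8% in WT for EZH2.

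EZH2 peaks were sparser and less tied to the 4 H3K27me3-bearing members. In the stretch 26 EZH2 peaks were listed in KO and 48 in WT, a ratio of 0.542, beside 0.724 on chromosome 1 and 0.637 over all chromosomes. With scores under 7 left out the ratio was 0.257 in the stretch, 0.249 on chromosome 1 and 0.206 over all chromosomes, so at that threshold the stretch did not lie below either. With peaks under 300 bp left out instead, it was 0.389 in the stretch, 1.02 on chromosome 1 and 0.871 over all chromosomes. There the stretch lay below both, so the reading depends on the filter. Covered length was 7841 bp in KO and 14073 bp in WT. The highest score was 9 in KO and 13 in WT, and no KO peak against 7 of the WT peaks reached a score of 10. Over all chromosomes the median EZH2 score was also lower in KO (5) than in WT (7).

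An EZH2 peak touched 4 of the 7 members in KO (CR2, CR1, CR1L and CD46) and all 7 in WT, where 18.3% of all genes had one in KO and 26.9% in WT. With peaks under 300 bp left out, 3 members had one in KO and 3 in WT, so the counts no longer differed. In 5 members (C4BPB, C4BPA, CD55, CR2 and CR1L) the KO covered share met the lower rule, CD46 met the higher one and CR1 neither. The ratio of CR2 was 0.464, and over the gene alone 0.517, which does not meet the lower rule. Of the 6548 genes with EZH2 coverage in either list, 55.2% met the lower rule and 22.4% the higher one. Of all genes with an EZH2 peak in WT, 46.8% also had one in KO. The median difference was -0.55 points over the members and -0.19 points over those genes.

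CR2 had 8 EZH2 peaks in KO and 16 in WT, which covered 5.46% and 11.8% of its window, and its difference of -6.31 points was the 36th largest deficit of all genes. Of these, 1 of 8 KO peaks overlapped a WT peak and 1 of 16 WT peaks a KO peak. The first 5 kb of the gene had no EZH2 coverage in KO and 42.6% in WT, and the 5 kb before the start 9.78% in KO and 27.1% in WT. From 5 to 10 kb after the start the order was the other way round, with 11.3% in KO and 3.36% in WT, and from 10 to 15 kb it was 22.0% in KO and 4.90% in WT. Joined across 3 kb, the widest WT EZH2 domain ran over 9.19 kb, from 2.58 kb before the CR2 start to 6.61 kb after it. The widest in KO ran over 5.69 kb, from 9.47 to 15.2 kb after the start.

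CR1 had nearly as many EZH2 peaks in KO (11) as in WT (12), covering 2.02% and 1.88% of its window, while its H3K27me3 share in KO was 0.192 of that in WT. At its start, the bin 40 to 45 kb after the CR2 start was covered over 28.5% in KO and 12.9% in WT. The nearest EZH2 peak was 86 bp from the CR1 start in KO and 1415 bp from it in WT.

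The other members carried isolated EZH2 peaks. CR1L had 2 in KO and 6 in WT, covering 0.454% and 1.70%. CD46 had 1 of 441 bp in KO and 1 of 158 bp in WT, both more than 17 kb into the gene. CD55 had none in KO and 1 in WT, 4.29 kb before its start. C4BPB had none in KO and 2 in WT, and C4BPA none in KO and 1 in WT, which was also counted for C4BPB.

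**Figure D3:**
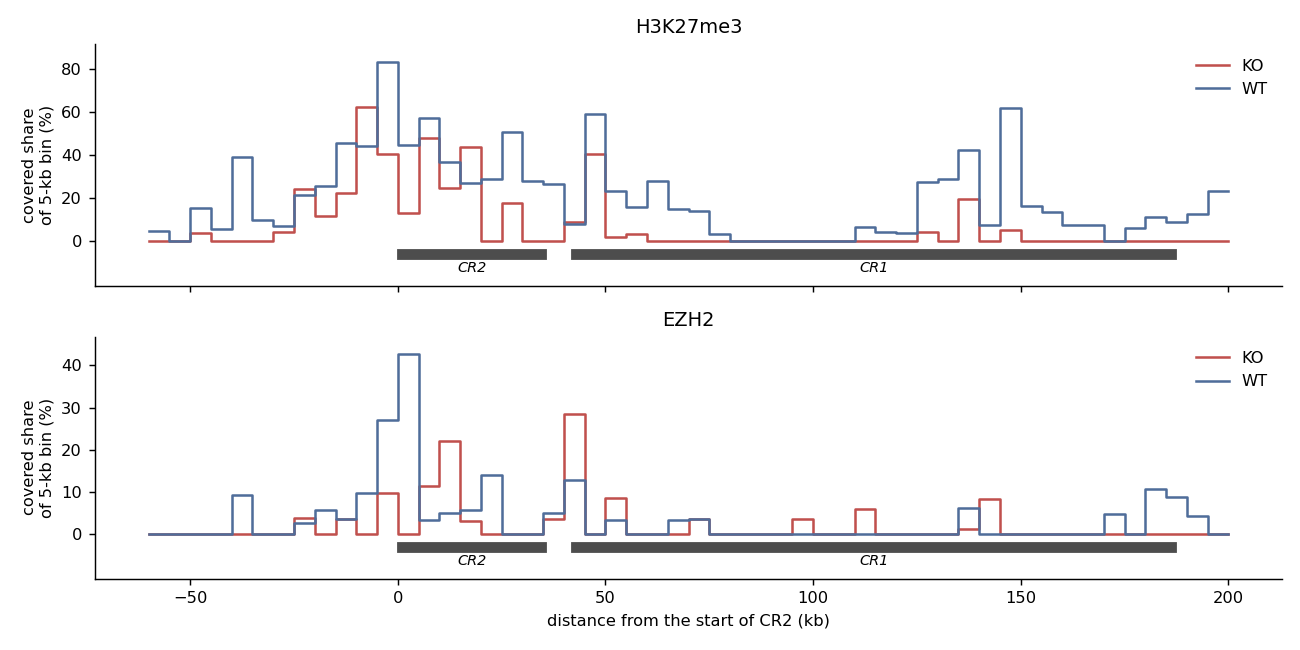
Covered share of 5-kb bins (percent) against the distance from the CR2 start (kb), H3K27me3 above and EZH2 below, KO and WT as lines, with CR2 and CR1 as bars under them. In the bin that starts at CR2, EZH2 is at 0 in KO and at 42.6% in WT, and H3K27me3 at 13.3% in KO and 44.9% in WT.

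KO and WT peaks of the stretch met more often for H3K27me3 than for EZH2, as they did over the whole lists. Of the H3K27me3 peaks, 59.6% of those in KO overlapped a WT peak (28 of 47, exact 95% Clopper-Pearson interval 44.3 to 73.6%), and for WT the share lying on a KO peak was 20.3% (27 of 133, 13.8 to 28.1%). Over the whole lists the shares were 21.4% of KO peaks and 15.9% of WT peaks. In the CR2 window 15 of 21 KO peaks and 13 of 29 WT peaks were shared. Counted in bases, 4577 bp of that window were covered in both genotypes, 48.6% of the KO and 23.9% of the WT length. WT peaks covered 42.0% of the window and KO peaks 20.7%. Whether positions were shared beyond what such dense coverage gives was not tested. Intervals cover counting error only.

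EZH2 peaks of the stretch almost never lay at the same place in both genotypes. Of the KO peaks 2 of 26 overlapped a WT peak (7.69%, 0.946 to 25.1%) and of the WT peaks 2 of 48 a KO peak (4.17%, 0.509 to 14.3%), close to the 7.97% and 5.13% of the whole lists. The share that repeats of a genotype would give is unknown.

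Within a genotype, EZH2 peaks of the stretch overlapped H3K27me3 peaks in 7 of 26 cases in KO (26.9%, 11.6 to 47.8%) and in 18 of 48 cases in WT (37.5%, 24.0 to 52.6%). The whole lists gave 19.0% in KO and 14.0% in WT. In the CR2 window 4 of 8 overlapped in KO and 11 of 16 in WT, and 7 of 8 in KO and 16 of 16 in WT lay within 1 kb of an H3K27me3 peak. The H3K27me3 and EZH2 lists of each genotype share an input, whose part in these overlaps was not tested.

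The 5 genes nearest to CR2 in the covered shares of the 4 lists were PPIAL4D, FAM237B, OR4D1, WEE2 and DEFB107B, by Euclidean distance in percentage points. PPIAL4D, a cyclophilin-like gene with near-identical copies and so uncertain, was closest at 3.78 points, with 23.3% in KO and 42.1% in WT for H3K27me3 and 8.20% in KO and 11.7% in WT for EZH2. The next, FAM237B, was 9.36 points away, with 15.1% in KO and 38.5% in WT for H3K27me3. The others lay 11.2 to 12.1 points away.

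**Figure D4:**
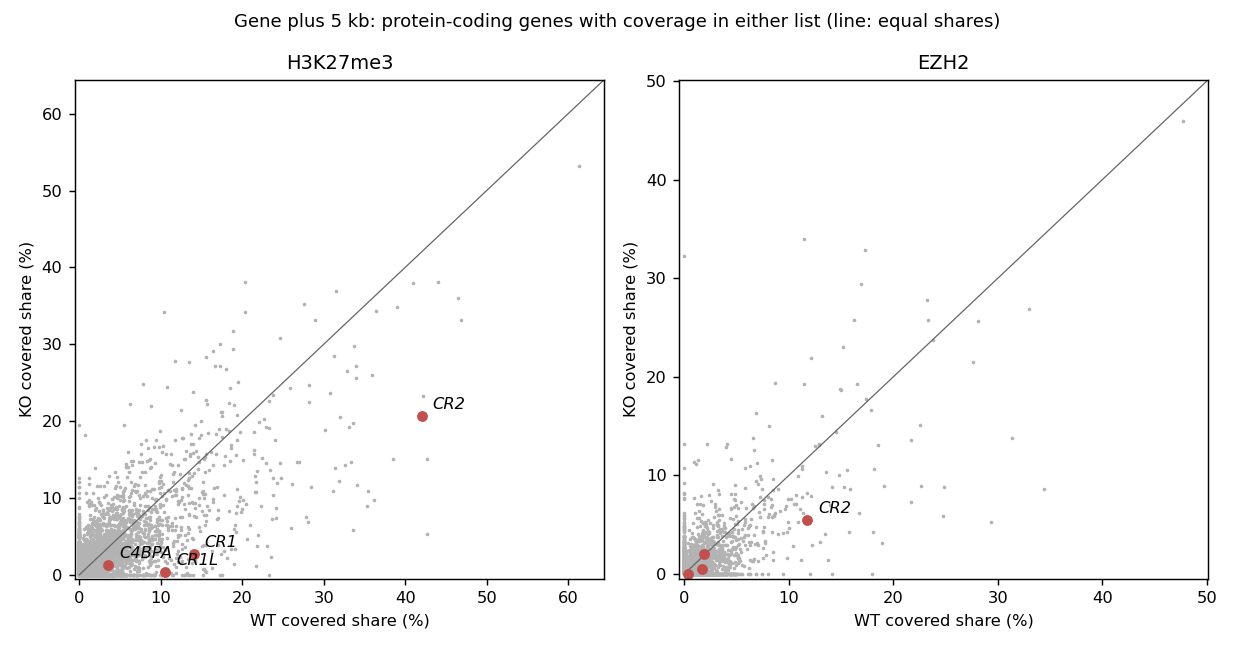
KO against WT covered share of gene plus 5 kb (percent) for protein-coding genes with coverage in either list, H3K27me3 on the left and EZH2 on the right, with CR2, CR1, CR1L and C4BPA as larger points and a line of equal shares. CR2 lies at 20.7% in KO and 42.0% in WT for H3K27me3, below the line, and CR1L close to the axis at 0.341% in KO and 10.5% in WT.

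Elsewhere in the genome, no listed complement gene had as large an H3K27me3 share as CR2 in either genotype, while SUSD4 and ITGAM, among others, had more in KO than CR1, CR1L or C4BPA. Of 27 complement component genes, H3K27me3 touched 9 in KO and 8 in WT, beside 23.1% of all genes in KO and 26.0% in WT, and of the 11 covered in either list 4 met the lower and 3 the higher rule. C8A, a part of the membrane attack complex, had 0.460% in KO and 2.12% in WT, and MBL2, a lectin that starts the cascade, none in KO and 1.35% in WT. C1QA, a chain of C1q, had 3.97% in KO and none in WT, and MASP1, a lectin pathway protease, 2.76% in KO and 1.69% in WT. EZH2 touched 6 in each genotype, 1 of them in both, with C1QC (none in KO and 4.43% in WT) and C1QB (none and 3.49%) against C8B (1.47% and none) and C1S (1.07% and none). Of the 11 covered genes 5 met each rule. Over all genes, EZH2 touched 18.3% in KO and 26.9% in WT. Of all genes covered by EZH2, 55.2% met the lower and 22.4% the higher rule. For H3K27me3 these shares were 40.7% and 24.5%.

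Among 15 complement regulators outside the stretch, 5 were touched by H3K27me3 in KO and 6 in WT, with 4 of 7 covered genes meeting the lower rule and 2 the higher. For all genes the shares touched were 23.1% in KO and 26.0% in WT. Of all covered genes 40.7% met the lower and 24.5% the higher rule. SUSD4, a membrane regulator on chromosome 1, had 11.8% in KO and 7.18% in WT, the opposite order to CR2. SERPING1, the C1 inhibitor gene, had 2.55% in KO and 0.909% in WT, CSMD3 0.330% and 1.39%, and CFI, the protease that cuts C3b, none and 0.253%. EZH2 touched 4 in KO and 7 in WT, and of the 8 covered genes 5 met the lower rule and 1 the higher, with CFI (none in KO and 0.883% in WT) and CFHR4 (none and 0.835%) against SUSD4 (2.14% and 1.68%) and CSMD2 (0.0858% and none). Of 9 other complement receptors, H3K27me3 touched 2 in each genotype, with ITGAM, a chain of complement receptor 3, at 4.77% in KO and 4.18% in WT, ITGAX at 1.44% and none, and CD93 at none and 0.554%. EZH2 touched ITGAM alone among them, in both genotypes. For EZH2 the shares of all genes touched were 18.3% in KO and 26.9% in WT. Of all genes it covered, 55.2% met the lower and 22.4% the higher rule.

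B cell genes, the lineage in which CR2 is best known, were touched by H3K27me3 in 10 of 23 cases in KO and 12 in WT, all 10 also in WT, beside 23.1% of all genes in KO and 26.0% in WT. Of the 12, 2 met the lower rule (CD79B and CD22), 1 the higher (FCRL1) and 9 lay between. Of all genes covered by H3K27me3, 40.7% met the lower and 24.5% the higher rule. FCRLA had 8.26% in KO and 15.1% in WT and FCRL4 4.27% and 7.90%, while FCRL1 had 10.0% in KO and 4.60% in WT and FCRL5 10.9% and 8.36%. These Fc receptor-like genes of B cells also lie on chromosome 1. EZH2 touched 9 in KO and 7 in WT, beside 18.3% of all genes in KO and 26.9% in WT. Of the 11 covered genes 2 met the lower rule, 4 the higher and 5 neither, beside 55.2% and 22.4% of all covered genes for the 2 rules. BLK (none in KO and 0.632% in WT) and FCRL3 (none and 0.612%) stood against FCRL4 (1.26% and none) and FCRL1 (0.624% and none).

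As a check of the cell type, H3K27me3 touched none of 10 genes of renal epithelium and carcinoma cells in KO and 1, CA12, in WT, beside 23.1% of all genes in KO and 26.0% in WT. EZH2 touched none in KO and 3 in WT, beside 18.3% of all genes in KO and 26.9% in WT. Of 6 B and T cell markers, 3 were touched by H3K27me3 in each genotype. Peaks do not show expression, so these counts do not settle the cell type. ZCCHC8 and SUZ12 had no peak of either antibody, and the genes EZH2 and EED, for PRC2 subunits, had none in KO and a single EZH2 peak in WT. A peak list does not show whether ZCCHC8 was lost.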

How the data were processed

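Per the labels' protocols, DNA from chromatin immunoprecipitation of ACHN cells was sequenced from both ends. The 6 samples were 4 ChIP libraries, each with a peak list, and 2 inputs. The submitters' processing notes list cutadapt 1.9.3, Bowtie2 2.2.4 and the build hg38. Which peak caller was used is unknown from these sources. Deposited lists hold start, end, name, length in bp and a score per peak that the authors gave without a definition. Length equalled end minus start plus 1, so coordinates are 1-based. Identical lines were counted once.

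Covered shares (union of peaks over gene plus 5 kb, genes from RefSeq GRCh38.p14), peak numbers and overlaps of at least 1 bp were computed in pandas 2.3.3 and NumPy 2.4.6 under Python 3.11.15, intervals in SciPy 1.17.1 and figures in matplotlib 3.10.9. As a check of the code, all peaks touching 200 marked genes were removed from the WT list of each antibody. Of these genes 200 of 200 were then called lower. Removal fixed that outcome in advance, so it does not measure how often a call is wrong. With 1 library per group no test was made. Members and gene lists were chosen with earlier results of these data known. Named genes were the members, their nearest neighbours, the 2 largest deficits and excesses of each list, the 5 genes most like CR2, and ZCCHC8, EZH2, SUZ12 and EED. Other genes were named after their values were seen. Alternatives changed the score, width and number of peaks, the window, stitching, overlap and repeated lines.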

Additional observations from a re-analysis of the deposited data

How the results depend on the processing

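For 14 results, 64 values were recomputed under other settings. Of these, 55 stayed within 1.5 times the reported value (overlap shares within its exact 95% interval) and 9 moved further. None reversed, but a reversal was scored only for the CR2 differences and the stretch ratios. Members with an H3K27me3 peak, 4 in KO and 4 in WT, became 3 in KO and 4 in WT over the gene alone. With 10 kb on both sides they became 5 in KO and 4 in WT. The intervals are wide, so a fall of the EZH2 WT share from 4.17% to 2.08% counted as kept. The H3K27me3 difference at CR2 ranged from -16.3 to -30.7 points over the 7 settings tried for it. For EZH2 at CR2 it was -16.5 points with 5 kb around both gene ends and -12.6 points with peaks stitched across up to 1 kb, against -6.31. Leaving out scores under 7 gave EZH2 ratios of 0.333 for covered length and 0.257 for peak number in the stretch, against 0.557 and 0.542. Cutting the longer list to the length of the shorter by score raised them to 0.728 and 0.765, and keeping all lines gave 0.7 for peak number. Leaving out scores under 7 also left 2 members with an EZH2 peak in KO, as did 5 kb around gene ends. With peaks of at least 300 bp, 3 members had an EZH2 peak in KO and 3 in WT. An overlap of at least 50% of the peak left 6.02% of WT H3K27me3 peaks shared with KO and 11.5% of KO EZH2 peaks overlapping H3K27me3. The causes were not tested. The scores of KO and WT lists may not mean the same, and the unknown depth limits what a missing peak shows. No paired analysis was possible because each group has 1 library.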

Other observations

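Other transcripts of the stretch are annotated between the members. LOC105372880, a long non-coding RNA gene between CD55 and CR2, had no H3K27me3 coverage in KO and 26.4% in WT. CD46P1, the CD46 pseudogene that overlaps the CR1L start, had none in KO and 15.2% in WT. C4BPAP3, a C4BPA pseudogene, was covered by EZH2 over 13.1% in KO and not in WT, and C4BPAP1 not in KO and over 3.86% in WT. Pseudogenes have near copies, so these values are uncertain.

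Within 1 Mb of the stretch, 21 other protein-coding genes are annotated, of which 7 had an H3K27me3 peak in KO and 8 in WT. Of all protein-coding genes 23.1% had one in KO and 26.0% in WT. IL20, an epithelial cytokine gene, had 22.3% in KO and 18.4% in WT, and its neighbour IL19 8.83% in KO and 8.56% in WT. The order was the other way round at IL24, a cytokine gene beside them, with none in KO and 8.12% in WT, at EIF2D, a translation factor gene, with 0.891% in KO and 2.21% in WT, and at FCMR, an IgM receptor gene, with none in KO and 0.609% in WT. CD34, a stem cell and endothelial marker and the nearest gene on the right of CD46, had 6.30% in KO and 5.39% in WT for H3K27me3, and 1.49% in KO and 4.04% in WT for EZH2. PLXNA2, a semaphorin receptor gene, held 42 H3K27me3 peaks in KO and 26 in WT, and 14 EZH2 peaks in KO and 25 in WT.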
